A study of Mus musculus with 16 samples.

Results

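The lysosomal hydrolases and membrane proteins were followed as 31 genes, matched by gene symbol among the 53465 genes of the count table, in ribosome footprint and mRNA libraries of mouse dorsal root ganglia (DRG) and of the spinal cord. They comprise 11 proteases (the cathepsins and legumain), 6 glycosidases, 5 membrane proteins including a channel, 6 enzymes and proteins that handle lipids, and 3 further genes, namely Grn, Tpp1 and Tfeb. Every one of the 31 was matched to a single gene and passed the minimum read count in every comparison. The gene products are soluble or membrane proteins of the lysosome, except Tfeb, which encodes a transcription factor of lysosomal genes.

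Lysosomes are acid compartments that break down proteins, sugars and lipids delivered by endocytosis and autophagy. Their hydrolases are made as secretory proteins, are tagged with mannose 6-phosphate and are carried to the lysosome, where a proton pump keeps the lumen acid. TFEB and its relatives bind E-box sequences near lysosomal genes and raise their transcription. Loss of many of these enzymes causes lysosomal storage disorders with neuronal disease, and microglia and macrophages, which engulf debris after nerve injury, are rich in several cathepsins.

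Spared nerve injury (SNI), a model of neuropathic pain, ties and cuts 2 branches of the sciatic nerve, the common peroneal and the tibial, and leaves the sural intact, while sham surgery leaves all branches unharmed. The SNI mice and the sham mice were C57BL/6J females operated on both sides at 8 weeks of age and killed 30 days later. Each pool held tissue of 10 mice, either L3 to L5 DRG or the dorsal part of the matching lumbar cord, and its lysate was split into a footprint and a poly(A) mRNA library. There were 2 SNI and 2 sham pools for each tissue, giving 16 libraries. The p-values of the tests below come from a model of read counts that shares information on spread over all genes. Each standard error (SE) was worked back from the fold change and the test statistic, so it is not a separate estimate. For small changes it is poorly determined, and Ctsd in DRG mRNA has none. Some of these errors are below what counting reads alone would give, so they are not a measured spread between the 2 pools of a group. None of them covers the spread between mice.

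The mRNA libraries held 18176471 to 28553113 reads in genes and the footprint libraries 6898056 to 21613483. Levels are given as CPM (reads per 1000000 reads in genes), scaled by TMM factors within a tissue and library type, and a call is an adjusted p under 0.05 in edgeR's quasi-likelihood test. Sensory neuron markers summed to between 4507 and 4549 CPM in DRG mRNA, against 59.8 to 72.9 CPM in cord mRNA, so the tissue labels fit the markers. In SNI DRG mRNA, injured sensory neuron markers were called higher for 6 of 6 genes and skeletal muscle markers for 7 of 8, with 1 lower (Pvalb). Astrocyte and oligodendrocyte markers were called lower for 5 of 6 and 5 of 7 genes, with 1 higher in each list. Spinal cord neuron markers were called lower for 4 of 7 genes and higher for 0, though 1 of the 7 was higher in sham DRG than in sham cord. The part of these cells in the results below was not tested. The 2 pools of a group were compared with sampling noise in 8 pairs of libraries. Chi-square per degree of freedom over all genes was 1.05 to 1.59 in mRNA and in cord footprints, close to noise. In DRG footprints it was above noise, at 2.29 for SNI and 2.76 for sham. No 2 libraries were identical, and every pair differed by that test over all genes. Over the 31 genes alone 2 of the 8 pairs differed by it, both from sham cord (0.861 to 1.98 per degree of freedom). That the 2 pools of a group come from separate mice rests on the labels alone, and every SE and p-value below depends on it.

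In DRG, 30 days after SNI, a subset of the proteases and progranulin rose while most lysosomal genes moved little. Of the 31 genes, 10 were called higher in mRNA, where 15.9% of all genes tested were called higher, and 4 were called lower, where 17.0% of all genes were. In footprints 8 were called higher against 8.4% of all genes, and 3 lower against 8.28%. The higher calls were thus a larger share of the 31 than of all genes and the lower calls were not far from the background. This is a description only, since the 31 were chosen with earlier results of these data known and abundant genes pass at smaller changes. Without SNI pool 2 the footprint calls came to 5 higher and 1 lower. The median log2 fold change of the 31 genes was 0.04 in mRNA and 0.02 in footprints, against 0.00 over all genes tested in each. Both counts and medians rest on a scaling that sets the typical gene to no change. With library sizes alone, 15 of the 31 were called higher and 3 lower in DRG mRNA, and over all genes the split was 3072 higher to 1781 lower in place of 2308 to 2467.

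**Figure D1:**
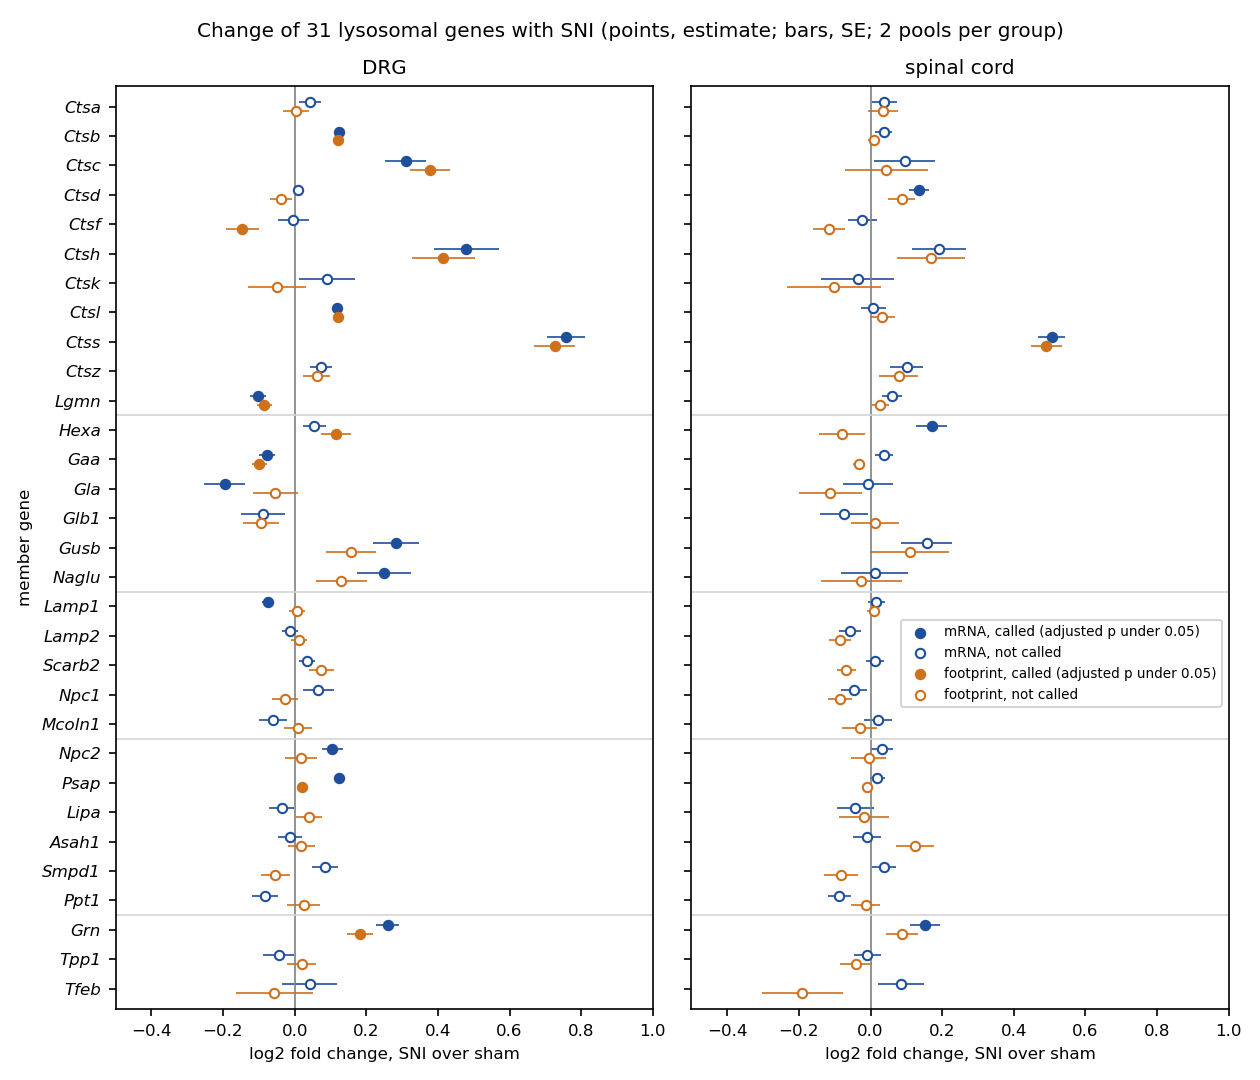
The log2 fold change of SNI over sham (horizontal axis) is shown for each of the 31 genes. DRG is on the left and spinal cord on the right, with mRNA in blue and footprints in orange. Filled points mark calls, and bars give the standard error, worked back from the fold change and the test statistic. Ctss lies farthest to the right in each tissue, at 0.76 in DRG mRNA and 0.51 in cord mRNA, and Ctsd in DRG mRNA has no bar because its test statistic was 0.

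The proteases held the largest changes. Ctss encodes cathepsin S, a cysteine protease that cuts the invariant chain in antigen-presenting cells and that microglia can release. Its mRNA was at 37.6 and 37.5 CPM in SNI DRG, against 22.2 and 22.3 CPM in sham DRG. Its footprints were at 60.0 and 56.9 CPM in SNI DRG, against 34.0 and 35.6 CPM in sham DRG. Both SNI pools lay far above both sham pools in either kind of library. The log2 fold change was 0.76 ± 0.054 (SE, adjusted p = 5.87e-14) in mRNA, a rise of 69.0%, and 0.73 ± 0.057 (adjusted p = 3.3e-21) in footprints. The gene lies on chromosome 3 (chr3:95526786-95556403, GRCm38, plus strand) and has 1358 bases of exon.

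Ctsh encodes cathepsin H, an aminopeptidase, and Ctsc encodes cathepsin C, a dipeptidyl peptidase that activates the granule proteases of immune cells. Ctsh mRNA was at 16.7 and 14.6 CPM in SNI DRG, against 11.8 and 10.7 CPM in sham DRG, a log2 fold change of 0.48 ± 0.090 (SE, edgeR adjusted p = 6.25e-05). Ctsc mRNA was at 29.7 and 29.5 CPM in SNI DRG, against 23.6 and 24.2 CPM in sham DRG, a log2 fold change of 0.31 ± 0.056 (adjusted p = 3.8e-05). Both genes were low in level, and for each of them the SNI and sham pools were apart. In footprints the log2 fold changes were 0.42 ± 0.087 for Ctsh and 0.38 ± 0.056 for Ctsc, both called. The Ctsh footprint call was lost without SNI pool 2, with an adjusted p of 0.0643.

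Ctsb and Ctsl encode cathepsins B and L, broad endopeptidases that were among the most abundant of the 31 mRNAs in DRG. Ctsb mRNA was at 1807 and 1802 CPM in SNI DRG, against 1650 and 1666 CPM in sham DRG. Ctsl mRNA was at 759 and 755 CPM in SNI DRG, against 699 and 695 CPM in sham DRG. Both rose by a small amount, alike in mRNA and footprints: the mRNA of Ctsb was higher by 8.87% and that of Ctsl by 8.60%, and the footprints by 8.83% and 8.68%. The log2 fold changes in mRNA were 0.12 ± 0.0044 (SE, edgeR adjusted p = 1.28e-22) for Ctsb and 0.12 ± 0.011 (adjusted p = 9.78e-11) for Ctsl. The error of Ctsb was smaller than the 0.0075 that counting error alone would give, and its change was 16.4 times that counting error. Ctsb (chr14:63122462-63145923, plus strand) shares 774 exonic bases with Fdft1 on the other strand, and the sequencing was not strand-specific.

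Legumain (Lgmn), an asparaginyl endopeptidase that trims other cathepsins, went the other way in DRG. Its mRNA was at 318 and 310 CPM in SNI DRG, against 332 and 343 CPM in sham DRG, and its footprints were at 819 and 812 CPM in SNI DRG, against 859 and 869 CPM in sham DRG. Both SNI pools were below both sham pools in either library type. The log2 fold change was -0.10 ± 0.023 in mRNA (SE, edgeR adjusted p = 0.000558) and -0.08 ± 0.021 in footprints (adjusted p = 0.0015), and the footprint call was lost without SNI pool 2 (adjusted p = 0.144).

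The other 5 proteases did not pass the test in DRG mRNA. Ctsf, a cysteine protease, was called in footprints only, at 85.1 and 80.7 CPM in SNI DRG, against 90.9 and 91.9 CPM in sham DRG (log2 fold change -0.15 ± 0.046, edgeR adjusted p = 0.0144), and this call was lost without SNI pool 2 or sham pool 2, with adjusted p up to 0.367. Ctsd, which encodes the aspartic protease cathepsin D, had 533 and 545 mRNA CPM in SNI DRG, against 535 and 535 CPM in sham DRG, so the groups overlapped. Ctsa, a serine carboxypeptidase that protects other lysosomal enzymes, Ctsz, a carboxypeptidase, and Ctsk, the collagen-degrading protease of osteoclasts, were not called in DRG.

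The promoters of 27 of the 31 genes were found in RefSeq, as 32 windows of 300 bases (250 before and 50 from the start of the gene, GRCm38.p6), while Ctsb, Ctsh, Npc1 and Asah1 had none there. The windows were searched on both strands for the letters GAGGAAGT, letters of a common site of PU.1, a transcription factor of myeloid cells. These letters stood in 4 of the 32 windows (12.5%), those of Ctsc, Ctss, Gla and Gusb, against 3.2% of the 32851 RefSeq promoters. Among the other lysosomal genes listed below they stood in 1 of 89 windows (1.12%), and among microglia and macrophage markers in 1 of 11 (9.09%). Ctsc, Ctss and Gusb are 3 of the 8 genes with a window that were called higher in DRG mRNA, Gla is 1 of the 4 called lower, and none of the 15 that were not called held it. The windows of Ctss (chr3:95526764-95526811, plus strand) and Ctsc (chr7:88277914-88277961, plus strand) are shown because these genes rose in both mRNA and footprints, with the match in capitals. It reads ACTTCCTC here because it lies on the other strand.
Ctss: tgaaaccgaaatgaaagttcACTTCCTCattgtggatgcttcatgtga
Ctsc: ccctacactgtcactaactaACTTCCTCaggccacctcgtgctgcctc
In Ctss the match runs from base -2 to base 6 counted from the RefSeq start, and in Ctsc from base -151 to base -144. Whether any factor binds there was not measured.

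**Figure D2:**
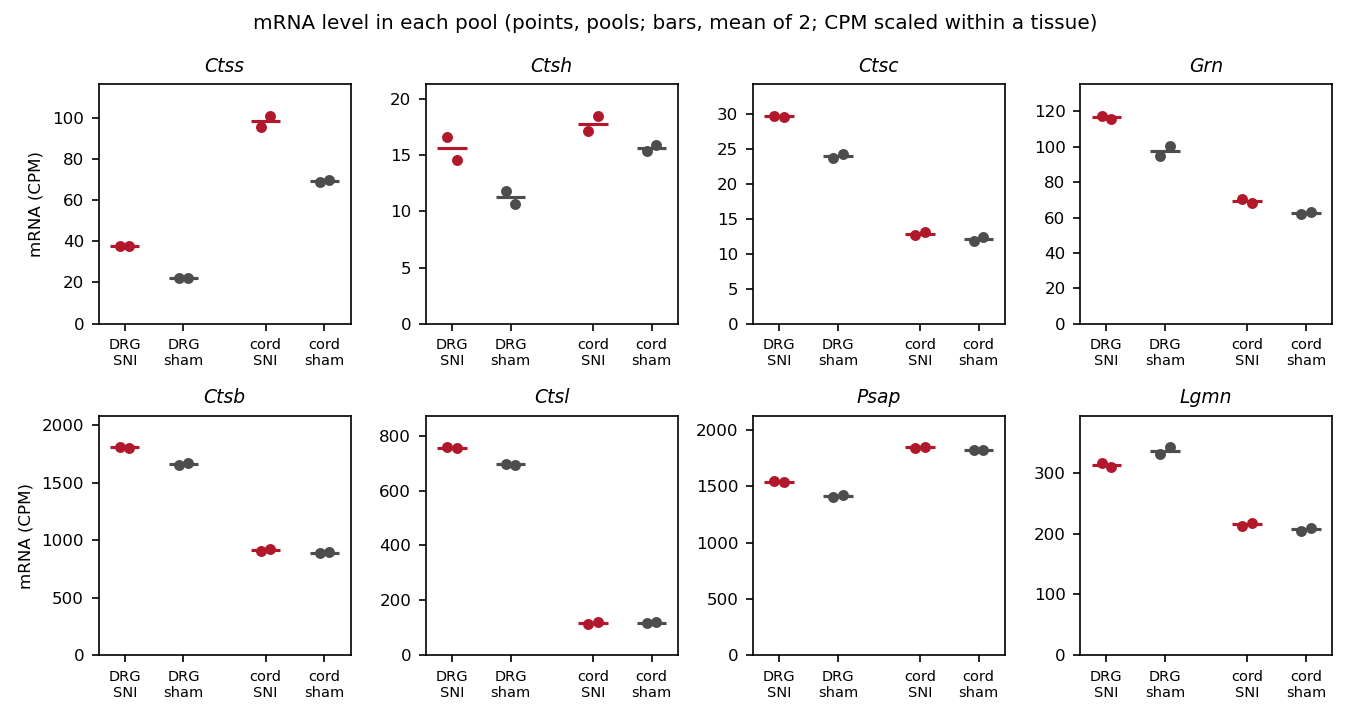
The mRNA level (CPM, vertical axes from 0, scaled within a tissue) is shown for each pool of 8 genes, with SNI pools in red and sham pools in grey and a bar at the mean of 2 pools. In DRG the SNI pools sit above the sham pools for 7 of the genes and below them for Lgmn, and in cord the separation is clearest for Ctss, at 95.5 and 101 CPM in SNI pools, against 68.7 and 69.6 CPM in sham pools.

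Among the 6 glycosidases, 2 were called higher and 2 lower in DRG mRNA, against 15.9% higher and 17.0% lower of all genes. Gusb, β-glucuronidase, was at 23.6 and 24.6 CPM in SNI DRG, against 19.4 and 20.2 CPM in sham DRG (log2 fold change 0.28 ± 0.064, SE, edgeR adjusted p = 0.000642). Naglu, which degrades heparan sulfate, was at 18.4 and 18.4 CPM in SNI DRG, against 15.2 and 15.8 CPM in sham DRG (0.25 ± 0.074, adjusted p = 0.0086). Both SNI pools exceeded both sham pools for these genes, yet neither was called in footprints, where the log2 fold changes were 0.16 for Gusb and 0.13 for Naglu. DESeq2 called neither gene in mRNA. The Naglu call was lost without sham pool 1 (adjusted p = 0.0862).

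Gaa, the acid α-glucosidase that degrades glycogen, was lower after SNI in DRG, with mRNA at 259 and 260 CPM in SNI pools, against 273 and 274 CPM in sham pools (log2 fold change -0.08 ± 0.023, SE, edgeR adjusted p = 0.00769). Its footprints were at 761 and 771 CPM in SNI DRG, against 833 and 807 CPM in sham DRG (-0.10 ± 0.022, adjusted p = 0.000358). The groups were apart in each, but the mRNA call was lost without sham pool 2 (adjusted p = 0.0557) and the footprint call without SNI pool 1 (0.0654). Gla, α-galactosidase A, was at 24.7 and 26.1 CPM in SNI DRG, against 29.6 and 28.4 CPM in sham DRG (-0.20 ± 0.057, adjusted p = 0.00724), a call lost without sham pool 1 or SNI pool 1, with adjusted p up to 0.118. Its footprints overlapped between the groups and were not called.

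Hexa, the α subunit of β-hexosaminidase, was called higher in DRG footprints only, at 101 and 104 CPM in SNI pools, against 95.9 and 94.3 CPM in sham pools (log2 fold change 0.12 ± 0.041, SE, edgeR adjusted p = 0.0368). The SNI pools were above the sham pools by a narrow gap, and the call was lost without sham pool 2 or SNI pool 2, with adjusted p up to 0.384. Glb1, β-galactosidase, was not called in DRG mRNA or footprints.

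Of the 5 membrane proteins, 1 was called lower in DRG mRNA and the other 4 were not called in mRNA or footprints, near the 15.9% higher and 17.0% lower of all genes in mRNA. Lamp1, an abundant glycoprotein of the lysosomal membrane, had mRNA at 541 and 553 CPM in SNI DRG, against 573 and 579 CPM in sham DRG (log2 fold change -0.08 ± 0.015, SE, edgeR adjusted p = 9.47e-05). Its footprints were at 784 and 782 CPM in SNI DRG, against 780 and 778 CPM in sham DRG, a log2 fold change of 0.01 that was not called. The mRNA was thus lower in both SNI pools while the footprints differed little. Lamp2, the related glycoprotein needed for chaperone-mediated autophagy, Scarb2, which carries glucocerebrosidase to the lysosome, Npc1, the membrane exporter of cholesterol, and the cation channel Mcoln1 (TRPML1) were not called in DRG.

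The 4 genes called lower in DRG mRNA, Gaa, Gla, Lamp1 and Lgmn, all held the E-box letters CACGTG in their RefSeq windows, as did 2 of the 8 called higher (Ctsl and Naglu) and 5 of the 15 not called (Ctsa, Ctsd, Ctsf, Glb1 and Mcoln1). This motif stood in 11 of the 32 windows (34.4%), against 7.15% of all RefSeq promoters. The longer CLEAR core TCACGTGA, which contains the E-box and is the preferred site of TFEB, stood in 4 windows (12.5%, namely Ctsa, Ctsd, Gla and Mcoln1), against 0.974% of all promoters. In the 89 windows of the other lysosomal genes listed below, the shares were 21.3% for the E-box and 10.1% for the CLEAR core. Both motifs read the same on either strand, and a match in such a window is a description of the letters only. The windows of the 4 lower genes are shown with each CACGTG, or TCACGTGA where it is complete, in capitals: Lamp1 at chr8:13159080-13159171 (plus strand), Gla at chrX:134601173-134601253 (minus), Lgmn at chr12:102439116-102439161 (minus) and Gaa at chr11:119267803-119267848 (plus).
Lamp1: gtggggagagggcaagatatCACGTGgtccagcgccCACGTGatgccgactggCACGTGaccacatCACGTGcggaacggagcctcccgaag
Gla: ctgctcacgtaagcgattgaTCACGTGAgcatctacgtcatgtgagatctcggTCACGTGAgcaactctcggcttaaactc
Lgmn: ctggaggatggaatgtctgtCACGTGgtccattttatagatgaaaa
Gaa: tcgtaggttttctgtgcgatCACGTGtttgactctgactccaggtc
Lamp1 held 4 copies within 92 bases, and Gla held 2 complete CLEAR cores. For comparison, the channel gene Mcoln1, which was not called, held 1 complete CLEAR core and 1 further E-box (chr8:3500428-3500500, plus strand).
Mcoln1: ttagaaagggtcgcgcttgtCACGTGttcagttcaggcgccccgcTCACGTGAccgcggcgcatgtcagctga

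Of the genes that handle lipids, Psap and Npc2 were called higher in DRG mRNA. Psap encodes prosaposin, which is cut into the saposins that help enzymes reach sphingolipids, and it was the most abundant of the 31 genes per kb of exon. It lies on chromosome 10 (chr10:60277627-60302597, plus strand). Its mRNA was at 1545 and 1538 CPM in SNI DRG, against 1408 and 1422 CPM in sham DRG, higher by 8.95% (log2 fold change 0.12 ± 0.0052, SE, edgeR adjusted p = 1.96e-20). Its footprints were at 3740 and 3734 CPM in SNI DRG, against 3703 and 3660 CPM in sham DRG, higher by 1.52% (0.02 ± 0.0068, adjusted p = 0.0147). The mRNA change was thus hardly seen in footprints, and the footprint call was lost without SNI pool 1, SNI pool 2 or sham pool 2, with adjusted p up to 0.684.

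Npc2, the soluble cholesterol carrier of the lysosome, had mRNA at 145 and 147 CPM in SNI DRG, against 139 and 131 CPM in sham DRG (log2 fold change 0.11 ± 0.029, SE, edgeR adjusted p = 0.0043). The pools were apart, but the call was lost without sham pool 2 (adjusted p = 0.167), and the footprints overlapped. Lipa, the acid lipase, Asah1, acid ceramidase, Smpd1, acid sphingomyelinase, and Ppt1, a palmitoyl thioesterase, were not called in DRG.

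Grn encodes progranulin, a secreted and lysosomal growth factor precursor whose loss causes neuronal ceroid storage. Grn mRNA was at 118 and 116 CPM in SNI DRG, against 94.7 and 101 CPM in sham DRG, and its footprints were at 235 and 240 CPM in SNI DRG, against 213 and 206 CPM in sham DRG. All SNI pools lay above all sham pools. Reads of overlapping genes could be counted for some members, since 68 exonic bases of Grn are shared with Fam171a2 and 255 of Hexa with Tmem202, and part of Lamp1 with Grtp1. The log2 fold change was 0.26 ± 0.031 in mRNA (SE, edgeR adjusted p = 2e-08) and 0.18 ± 0.037 in footprints (adjusted p = 4.98e-05). Tpp1, tripeptidyl peptidase 1, was not called. Tfeb mRNA was at 16.0 and 17.0 CPM in SNI DRG, against 16.4 and 15.5 CPM in sham DRG, so the groups overlapped, and it was called in none of the SNI comparisons of either tissue.

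In DRG, 16 of the 31 genes were thus called in mRNA or footprints, 7 of them higher in both (Ctsb, Ctsc, Ctsh, Ctsl, Ctss, Grn and Psap) and 2 lower in both (Gaa and Lgmn). The share of all genes called in either or in both library types was not computed, so these counts are a description only. Under DESeq2 the mRNA calls of Gusb, Naglu, Npc2, Gaa and Gla were lost. So were the footprint calls of Hexa, Ctsh, Psap and Ctsf. The 15 called in neither lay between -0.09 and 0.09 on the log2 scale in mRNA and between -0.09 and 0.07 in footprints. Summed over the 31 genes, mRNA came to 7586 and 7580 CPM in SNI DRG, against 7220 and 7268 CPM in sham DRG.

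Markers of microglia and macrophages also rose in SNI DRG, as Ctss, Ctsh and Ctsc did, while the other proteases rose less, were not called or were called lower. Of 16 such markers, 13 were called higher in DRG mRNA and 0 lower, with a median log2 fold change of 0.48, and their summed mRNA was at 289 and 289 CPM in SNI DRG, against 210 and 206 CPM in sham DRG. The most abundant, C1qa, C1qb and Csf1r, had log2 fold changes of 0.55, 0.49 and 0.61, while P2ry12, Cx3cr1 and Itgam were not called, and none of the 16 fell under the minimum of reads. Fibroblast and meningeal markers were called higher for 5 of 6 genes, with sums of 1759 and 1750 CPM in SNI DRG, against 1590 and 1573 CPM in sham DRG. The part of these cells in the changes of Ctss, Ctsh, Ctsc and Grn was not tested, and in bulk tissue more cells of a type cannot be told apart from more RNA per cell.

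In spinal cord, Ctss was again the gene that changed most and few others moved. Of the 31 genes, 4 were called higher in mRNA, against 2.09% of all genes tested, and 0 lower, against 1.96%. There was 1 gene below 0 at an unadjusted edgeR p under 0.05, and DESeq2 called 0 lower. Of the 4 called higher, DESeq2 kept Ctss alone. In footprints, 1 was called higher, against 1.21% of all genes, and 0 lower, against 1.03%, with 4 genes below 0 at an unadjusted p under 0.05 and 0 called lower by DESeq2. The mRNA calls came to 1 without SNI pool 2 or without sham pool 1. The footprint calls came to 2 higher without SNI pool 1 and to 1 lower without SNI pool 2. Ctss mRNA was at 95.5 and 101 CPM in SNI cord, against 68.7 and 69.6 CPM in sham cord, and its footprints were at 184 and 178 CPM in SNI cord, against 127 and 130 CPM in sham cord. Both SNI pools were well above both sham pools, with log2 fold changes of 0.51 ± 0.038 in mRNA (SE, edgeR adjusted p = 2.28e-16) and 0.49 ± 0.042 in footprints (adjusted p = 2e-08).

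The other 3 calls in cord were in mRNA alone, and DESeq2 made none of them. Ctsd was at 286 and 292 CPM in SNI cord, against 257 and 270 CPM in sham cord (log2 fold change 0.13 ± 0.028, SE, edgeR adjusted p = 0.00122). Hexa was at 61.8 and 65.2 CPM in SNI cord, against 55.3 and 57.7 CPM in sham cord (0.17 ± 0.044, adjusted p = 0.0124). Grn was at 70.3 and 68.2 CPM in SNI cord, against 61.7 and 62.9 CPM in sham cord (0.15 ± 0.041, adjusted p = 0.0196). The SNI pools were above the sham pools for all 3, with smaller gaps than for Ctss, and none of the 3 calls held without SNI pool 2 or without sham pool 1, with adjusted p up to 0.11 for Ctsd, 0.335 for Hexa and 0.252 for Grn, which was also lost without SNI pool 1. Hexa footprints were at 60.3 and 65.8 CPM in SNI cord, against 63.6 and 68.5 CPM in sham cord, so the groups overlapped.

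The 27 genes called in neither library type of the cord lay between -0.09 and 0.19 on the log2 scale in mRNA and between -0.19 and 0.17 in footprints. The widest of them was Ctsh, at 17.2 and 18.6 mRNA CPM in SNI cord, against 15.4 and 15.9 CPM in sham cord, with the pools apart but an edgeR adjusted p of 0.148. Microglia and macrophage markers were called higher in cord mRNA for 11 of 16 genes and lower for 0, with a median log2 fold change of 0.37 and summed mRNA of 469 and 479 CPM in SNI cord, against 366 and 373 CPM in sham cord. The part of these cells in the Ctss change of the cord was not tested.

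The mRNA responses of DRG and cord were compared by a test of their difference. Of the 31 genes, 4 had a response called higher in DRG than in cord, against 6.35% of all genes, and 4 a response called lower, against 7.23%. Ctss responded by 0.26 ± 0.070 log2 more in DRG than in cord (SE, edgeR adjusted p = 0.0074), Psap by 0.11 ± 0.025 more (adjusted p = 0.00117), and Lgmn by 0.15 ± 0.035 less (adjusted p = 0.00112), its response being -0.10 in DRG and 0.06 in cord. The remaining calls were Ctsb and Ctsl with more in DRG, and Ctsd, Gaa and Lamp1 with less. Among these 8, Psap and Lgmn kept the call under each alternative run. A fixed coefficient of variation, a test against a 1.5-fold change and a replicate block were not run for this difference. The other 6 lost the call under DESeq2 and on leaving out single pools. For Ctss the pool was DRG sham pool 1 (adjusted p = 0.0532). For Ctsb it was each of the 4 DRG pools (up to 0.0877), for Ctsl these and cord SNI pool 1 or cord sham pool 2 (up to 0.225), and for Ctsd DRG SNI pool 1, cord SNI pool 2 or cord sham pool 1 (up to 0.131). For Gaa it was either DRG SNI pool, DRG sham pool 1 or cord sham pool 1 (up to 0.0893), and for Lamp1 each DRG pool, cord SNI pool 2 or cord sham pool 1 (up to 0.286). The count called higher came to 1 without DRG sham pool 1 and 2 without DRG SNI pool 1 or DRG sham pool 2. The count called lower came to 1 without DRG SNI pool 1 or cord sham pool 1, and 2 without DRG SNI pool 2, DRG sham pool 1 or cord SNI pool 2.

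Translation efficiency (TE) is the ratio of footprints to mRNA in a lysate, given here as log2 of the 2 CPM values, so a TE is relative to the typical gene. In DRG, 1 of the 31 genes had a TE called lower, against 3.21% of all genes, and 0 called higher, against 4.22%, with 1 gene above 0 at an unadjusted p under 0.05 and 0 called higher by DESeq2 or by limma on the deposited ratio. The gene was Psap, with a log2 TE of 1.28 and 1.28 in SNI DRG, against 1.40 and 1.36 in sham DRG. The change of -0.10 ± 0.0088 (SE, edgeR adjusted p = 4.22e-28) was 9.66 times the counting error, and both SNI lysates were below both sham lysates. The SE was smaller than the 0.0105 that counting error alone would give. The common coefficient of variation in this fit was 0.00988, against 0.043 for DRG footprints fitted alone. The value of 0.00988, also given for DRG mRNA, is the lowest the default fit can return and not a measured spread. The p-value may thus overstate the evidence. DESeq2 and limma on the deposited ratio did not call Psap. The other 30 genes lay between -0.16 and 0.11, among them Lamp1 at 0.08 (adjusted p = 0.0772), and Ctss at -0.02 ± 0.086.

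In cord, 0 of the 31 genes had a TE called higher, against 0.169% of all genes, and 0 called lower, against 0.0843%. At an unadjusted p under 0.05 there were 0 genes above 0 and 5 below, and DESeq2 and limma on the deposited ratio called 0. The log2 changes of TE lay between -0.26, for Tfeb, and 0.12. Tfeb had a log2 TE of 0.02 and -0.08 in SNI cord, against 0.05 and 0.37 in sham cord, so 1 sham lysate stood apart.

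The 31 genes differed far more in level than in their response to injury. In sham DRG, mRNA per kb of exon ran from 525 ± 3.73 CPM for Psap to 2.55 ± 0.184 CPM for Ctsh (mean ± SD, n = 2 pools), a range of 206-fold, and in sham cord from 653 ± 0.165 CPM for Psap to 2.04 ± 0.0708 CPM for Ctsc. These levels were scaled over all 8 mRNA libraries. In DRG the next after Psap were Ctsb at 279 ± 1.88, Ctsd at 232 ± 0.0835, Lamp1 at 219 ± 1.74, Lgmn at 148 ± 3.50 and Ctsl at 109 ± 0.358 CPM per kb. These neighbours were each apart by more than the SD of their pools, while Ctsf and Smpd1 in the middle of the order were both at 22.6 CPM per kb. The exon lengths are those of the deposited table. For Ctsf (1975 bases) and Lipa (2969) they are far shorter than the 5041 and 6780 bases of GENCODE M21, so the levels per kb and places of these genes in the order depend on the annotation.

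**Figure D3:**
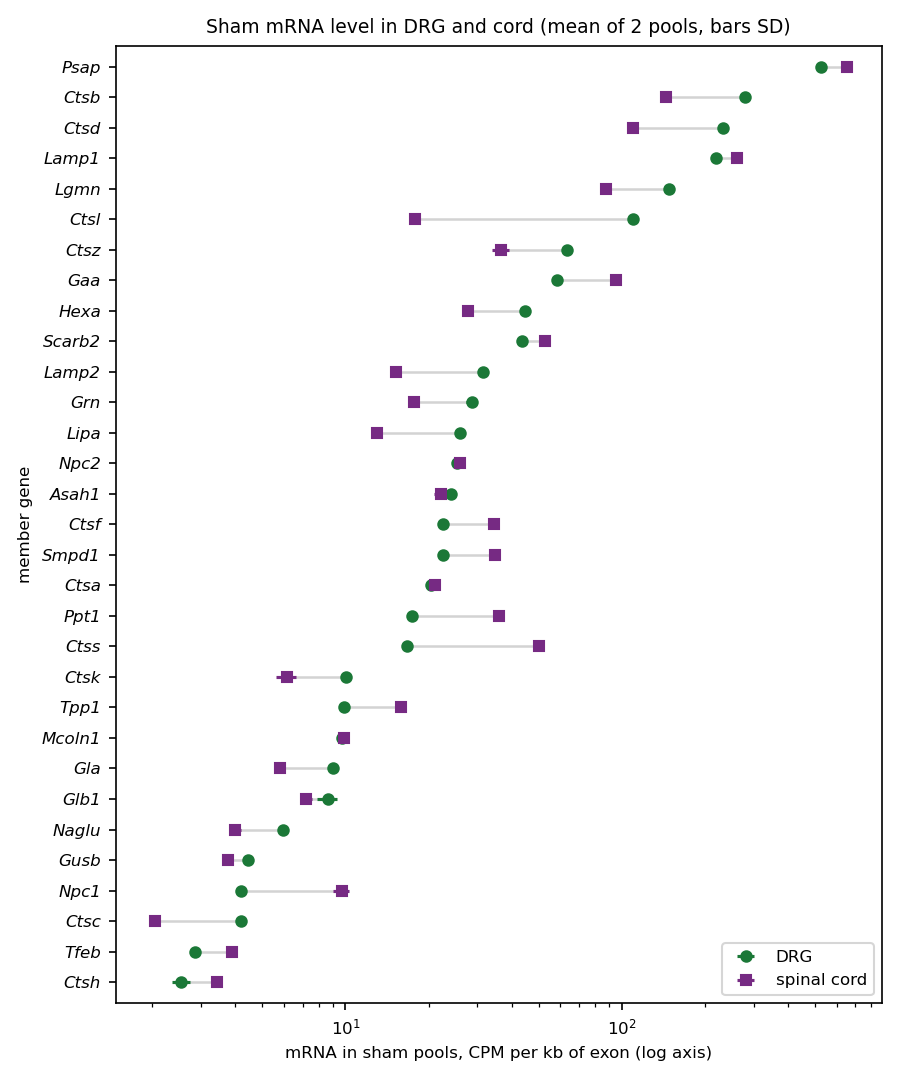
The mRNA level in sham pools (CPM per kb of exon, logarithmic horizontal axis) is shown for each of the 31 genes in DRG (green circles) and spinal cord (purple squares), as the mean of 2 pools with the SD as bars. The widest gap is that of Ctsl, at 109 CPM per kb in DRG and 17.8 CPM per kb in cord, and Ctss shows the widest gap in the other direction.

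Between the tissues, 16 of the 31 genes were called higher in sham DRG than in sham cord, against 39.9% of all genes, and 12 lower, against 41.2%. Ctsl was higher in DRG by 2.62 ± 0.025 log2 (SE, edgeR adjusted p = 2.37e-55), a 6.15-fold difference, with 109 ± 0.358 CPM per kb in DRG and 17.8 ± 0.244 in cord. Ctsd, Lamp2, Ctsc, Lipa and Ctsb were higher in DRG by between 0.95 and 1.07 log2. Ctss was lower in DRG by 1.59 log2, at 16.7 ± 0.0501 CPM per kb in DRG and 50.1 ± 0.311 in cord, and Npc1 and Ppt1 were lower by 1.21 and 1.05 log2. The proteases thus differed in both directions between the tissues. Microglia and macrophage markers were called lower in sham DRG for 11 of 16 genes and higher for 3, with a median of -0.79 log2, and their part in the difference of Ctss was not tested.

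In both tissues the mRNAs of this group carried many footprints. The median log2 TE of the 31 genes in sham lysates was 0.70 in DRG, where it was -0.20 over all 12504 genes, and 0.73 in cord, where it was -0.15 over all genes. In each tissue 30 of the 31 lay above the median of all genes, and Npc2 was the exception, at -0.62 ± 0.067 in DRG and -0.27 ± 0.108 in cord (SD, n = 2 lysates). Npc1 at 1.62, Glb1 at 1.61 and Gaa at 1.58 were the highest in DRG. A TE of this kind also depends on how much of a gene's exon is coding, since footprints lie in the coding part. Coding sequence made up 8.2% of the exonic bases of Npc2 and 83.4% of those of Naglu, and across the 31 genes the correlation of log2 TE with this share on a log scale was 0.24 (Pearson) and 0.12 (Spearman) in DRG, as a description.

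**Figure D4:**
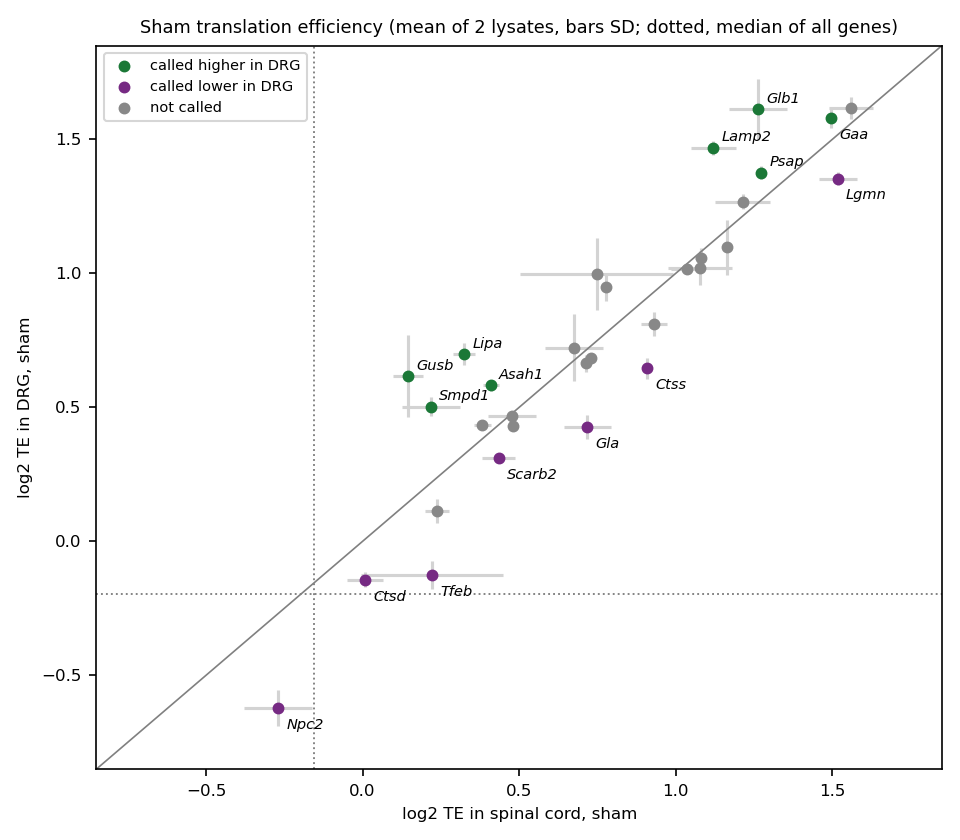
The log2 TE of each of the 31 genes in sham DRG (vertical axis) is plotted against that in sham spinal cord (horizontal axis), as means of 2 lysates with the SD as bars, colored by the test of the difference. Points follow the diagonal of equal TE and nearly all lie above and right of the dotted medians of all genes, with Npc2 the lowest in both tissues.

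The order of TE among the 31 genes was much alike in the tissues (Pearson r = 0.921 and Spearman rho = 0.908 across genes, which share each library's depth and the genes' own lengths). Sham TE was called higher in DRG for 8 of the 31 genes, against 20.4% of all genes, and lower for 7, against 22.6%, both shares near the background. The lower calls came to 3 without DRG sham pool 1 or cord sham pool 2 and to 2 without DRG sham pool 2. Lamp2 was higher in DRG by 0.38 ± 0.041 log2 (SE, edgeR adjusted p = 2.83e-17), Lipa by 0.40 ± 0.076 (adjusted p = 1.54e-06) and Smpd1 by 0.30 ± 0.060 (adjusted p = 3.48e-06). Npc2 was lower in DRG, with a difference of -0.31 ± 0.059 (adjusted p = 1.53e-06). Glb1, Gusb, Asah1, Psap and Gaa completed the higher calls, and Lgmn, Ctsd, Tfeb, Ctss, Gla and Scarb2 the lower ones.

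Other lysosomal genes moved in both directions in DRG mRNA, where 15.9% of all genes were called higher and 17.0% lower. Of 26 further enzymes, 6 were called higher and 0 lower, led by the serine carboxypeptidase Scpep1 at 0.76 ± 0.042 (log2 fold change, SE), the phospholipase Pla2g15 at 0.28 ± 0.058 and the α-mannosidase Man2b1 at 0.23 ± 0.051. Of 20 further membrane proteins, 6 were higher and 3 lower, with the tetraspanin Cd63 at 0.41 ± 0.036, the immune cell protein Laptm5 at 0.41 ± 0.051 and the cystine exporter Ctns at 0.29 ± 0.052, against Lamp5, a neuronal LAMP family member, at -1.03 ± 0.16. Lamp5 was among the 3 most abundant of these 20 mRNAs in cord but not in DRG. Spinal cord neuron markers were called lower in SNI DRG for 4 of 7 genes and higher for 0, and their part in the Lamp5 change was not tested. In sham pools 6 of the 7 were called lower in DRG than in cord and 1 higher, so the list is not wholly specific to cord.

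The vacuolar ATPase, the proton pump, had more calls down than up in DRG mRNA, as had the TFE family and nutrient sensing genes below: of 18 subunits tested, 4 were called higher and 9 lower. In footprints 3 subunits were called higher and 4 lower, against 8.4% and 8.28% of all genes. Atp6v1a, the catalytic subunit, was at -0.14 ± 0.018 (log2 fold change, SE), Atp6v1c1 at -0.16 ± 0.025 and Atp6v1g2, a neuronal subunit, at -0.17 ± 0.029, while Atp6v0a1, of the membrane sector, was at 0.15 ± 0.020. The proton pump and the hydrolases it serves thus held calls in both directions. Of 9 genes for sorting to the lysosome, 2 were higher and 0 lower, namely the adaptor Gga1 at 0.11 ± 0.034 and the receptor Sort1 at 0.12 ± 0.041. Of 14 genes of the TFE family and lysosomal nutrient sensing, 2 were higher, with Tfe3, a relative of Tfeb, at 0.20 ± 0.039, and 4 were lower, with the Ragulator subunits Lamtor2 at -0.20 ± 0.033 and Lamtor4 at -0.14 ± 0.030. In DRG footprints edgeR called 0 genes of the sorting and 0 of the TFE lists, where at an unadjusted p under 0.05 there were 0 genes above 0 and 1 below for sorting and 1 above and 1 below for the TFE list. DESeq2 was not read for these lists. Of 3 cathepsin inhibitors, Cst3 (cystatin C) alone was called, at 0.16 ± 0.016.

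In cord mRNA, 1 of the 20 further membrane proteins was called higher, against 2.09% of all genes, namely Laptm5 at 0.38 ± 0.048 (log2 fold change, SE). Laptm5 and the microglia markers stand beside Ctss in that tissue, and whether they come from the same cells was not tested.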

How the data were processed

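Footprint and poly(A) mRNA libraries of 4 conditions were analysed, with 2 pools of mice each. The authors removed rRNA and tRNA reads with Bowtie. The submitters' processing notes name Bowtie 1.1.2, STAR 2.5.2b, HTSeq (version not given in the sources used here) and the build GRCm38.p5. The sequencing was not strand-specific. The deposited read counts were the values tested. The authors also gave RPKM per library. Levels did not use it. For 0.0971% of 11327 genes only did it equal, within 0.1%, the value computed from the listed exonic length and the summed reads in genes. That check cannot tell a different length from a different library size. The deposited TE is a ratio the authors made from the RPKM of footprint and mRNA of a lysate, and served in 1 alternative. All columns of per-sample values were mapped (0 left out).

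Counts were tested with edgeR 4.0.16 in R 4.3.3 (TMM factors, quasi-likelihood, Benjamini-Hochberg over all genes tested, a minimum of 128 reads), SNI against sham within a tissue and library type. For TE, the surgery by library type interaction was fitted with a term for each lysate, which pairs the 2 libraries of a pool. Log2 TE used 0.5 reads added to each count. CPM were divided by kb of exon only where genes are compared. The main tests did not pair SNI with sham pools by replicate number. Deviations of same-numbered pools correlated at 0.19 in DRG footprints, 0.053 in DRG mRNA, -0.033 in cord footprints and 0 in cord mRNA, so some shared deviation in DRG footprints was left in. With a replicate block, DRG footprint calls over all genes came to 1250 higher and 1282 lower, against 1095 and 1080. Tests were tried on simulated data.

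The 31 genes and all lists were chosen with earlier results of these data known. Genes called in an SNI comparison and Tfeb are given by pool, the other members by range. Of other lysosomal lists up to 3 called genes with the smallest adjusted p in each direction may be named, and of marker lists the 3 most abundant. One gene of these lists, and the cord result of its list, are not reported here. P2ry12, Cx3cr1 and Itgam were named after their values were seen. Coordinates are from GENCODE M21 and promoters from RefSeq. Alternatives were DESeq2 1.42.0, library sizes alone, no filter, a fixed coefficient of variation of 0.1, a test against a 1.5-fold change, a replicate block, each pool left out, no lysate terms, and limma 3.58.1 on the deposited TE. The fixed coefficient of variation, the 1.5-fold test and the replicate block were run for the SNI comparisons within a tissue only. Leaving out lysate terms and limma were run for the SNI comparison of TE only. Python 3.11.15 with pandas 2.3.3 made the tables and matplotlib 3.10.9 the figures. Depth allowed changes of a few percent in abundant genes to pass the test, and counting errors cover counting only.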

Additional observations from a re-analysis of the deposited data

Results flagged for a closer look

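The mRNA responses of 8 of the 31 genes differed between DRG and cord by the test of the difference (edgeR, log2 response in DRG minus that in cord). Psap and Lgmn kept this call under each alternative run, and the other 6 lost it under DESeq2 and on leaving out single pools. The fixed coefficient of variation, the 1.5-fold test and the replicate block were not run for this difference. The response was larger in DRG for Ctss (0.26), Ctsl (0.12), Psap (0.11) and Ctsb (0.0931). It was smaller, or opposite, in DRG for Lgmn (-0.15), Ctsd (-0.12), Gaa (-0.11) and Lamp1 (-0.084). Lgmn was called lower in DRG mRNA and had a log2 fold change of 0.06 in cord that was not called. Ctsd was called higher in cord mRNA and had a log2 fold change of 0.01 in DRG that was not called. With 2 pools per group, no group could be searched for a single deviating pool.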

How the results depend on the processing

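No called value of the 31 genes in the SNI comparisons or in the difference of response between tissues changed sign: of 400 values over the alternatives, 269 kept their call and 131 lost it. Single genes of the sham comparisons and of other lists were not followed over the alternatives. Of the SNI calls, Ctss in DRG mRNA was the one kept under all 10. A fixed coefficient of variation of 0.1 left 1 of the 10 genes higher and 0 of the 4 lower in DRG mRNA, 1 of 8 and 0 of 3 in DRG footprints, 0 of 4 higher in cord mRNA, 0 of 1 in cord footprints and 0 of 1 lower in DRG TE. The test against a 1.5-fold change left 1 higher and 0 lower in DRG mRNA and 0 in each of the other counts just named. DESeq2 gave 2 lower in DRG mRNA, 5 higher in DRG footprints, 1 higher in cord mRNA, 0 lower in DRG TE, 1 higher and 1 lower for the difference of response, and 3 higher and 1 lower for sham TE. Over all genes DESeq2 called 928 higher and 1176 lower in DRG mRNA, against 2308 and 2467. Limma on the deposited TE gave 0 lower in DRG TE. Library sizes alone gave 2 lower for the difference of response, and no filter gave 2 there and 1 lower for sham TE. Without lysate terms, 1 gene was higher in DRG TE. With library sizes alone, all genes split 1354 higher to 829 lower in DRG footprints (1095 to 1080 with TMM), 447 to 483 in DRG TE (536 to 408) and 1351 to 974 for the difference of response (1061 to 1208).

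The replicate block gave 1 gene lower in cord mRNA (0 without it) and 1 higher in DRG TE (0 without it), and moved no other count of the 31 genes by over 1.5 times. Over all genes it gave 494 higher and 511 lower in cord mRNA, against 308 and 289. The labels do not say that a number marks a shared batch.

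Leaving out each pool in turn gave 9 to 11 genes higher and 3 to 5 lower in DRG mRNA, 5 to 9 and 1 to 3 in DRG footprints, 1 to 5 higher in cord mRNA, 1 to 2 higher and 0 to 1 lower in cord footprints, 1 to 4 higher and 1 to 4 lower for the difference of response, and 7 to 9 higher and 2 to 5 lower for sham TE. The cord mRNA count was 1 without sham pool 1 and 1 without SNI pool 2. The lone pool left was assumed to vary like the other group. For the tissue comparisons, leaving out pools was chosen after the data were seen.

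The estimated spread between pools was close to sampling noise except in DRG footprints, where the common coefficient of variation was 0.043. In DRG mRNA it was 0.00988, the lowest value the default fit can return. That value is a bound and not a measured spread. Of the 31 called SNI values, 12 had a test error below the counting error, 0 were under 2 counting errors and 1 was under 3, Hexa in DRG footprints at 2.83. Pools of 10 mice hide the spread between mice, so small changes may not hold in other animals, which could not be tested.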
